A study of Mus musculus with 2 samples.

Results

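Cells that express *Shh* are a rare state among the stem cells (SCs) and early progeny of the neonatal mouse pituitary. They were taken here as single-cell barcodes with at least 1 unique molecular identifier (UMI, 1 counted RNA molecule) of *Shh*, at least 1000 genes and at most 10% of UMIs from mitochondrial genes, with *Cga* below 2000 in UMI counts-per-million (CPM), at most 1 *Pou1f1* UMI and at most 2 UMIs of *Col1a1* and *Col3a1* together. In all, 196 of 13613 barcodes met this rule, 119 of 8009 male and 77 of 5604 female ones, and they are called members below. The samples are SOX9iresGFP+ cells sorted from Sox9iresGFP/+ pituitaries at postnatal day 3 (P3), 1 library per sex, each from 3 pooled pituitaries. The labels give no treatment or strain. Both groups carry the same reporter allele. The labels name the cell type as stem cell, but the sort reads the reporter protein and not SOX9, and can therefore take in cells that have left the SC state. With 1 library per sex there is no replicate of either library. No test was therefore made, and every interval below is an exact 95% interval that holds counting error only.

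Sonic hedgehog is a secreted, lipid-modified ligand that binds the receptor PTCH1 on receiving cells. Binding relieves the block that PTCH1 places on SMO, which lets GLI factors switch on targets that include *Ptch1* and *Gli1*, so these transcripts mark cells that receive the signal rather than those that send it. In the embryo, SHH from the oral ectoderm patterns the pituitary primordium. In the SC progeny of the postnatal gland, *Lef1* encodes a transcription factor of the WNT pathway, *Smoc2* a secreted matrix protein and *Pou3f4* a POU-domain transcription factor.

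The male library held 106039887 UMIs and the female library 62897759, and the median barcode within the limits on genes and mitochondrial share had 11108 and 9892 UMIs. The libraries shared 19 barcode sequences, and 1 member carried one of them. No step against doublets is given in the methods and none was taken here, and the highest Scrublet scores marked 6.72% of male and 6.49% of female members against 6.41% and 4.48% of all barcodes. Endothelial and mesenchymal transcripts were scarce in members, while some hormone transcripts of other endocrine types were not. *Pomc* was detected in 97 of 119 male and 25 of 77 female members and *Gh* in 34 and 21, against *Prl* in 2 and 0. All 5 endothelial markers were at 0 in male members and 4 of 5 in female members, and *Pdgfra*, *Pdgfrb* and *Tcf21* were at 0 in both. The 8 mesenchymal markers summed to 6.94 and 3.49 CPM against 12940 and 16030 CPM in barcodes rich in collagen. That contrast is partly set by selection, because the rule limits *Col1a1* and *Col3a1* in members. The collagen barcodes were in turn chosen on *Col1a1*, *Col3a1* and *Dcn*.

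*Shh* lies on chromosome 5 (28456815 to 28467256, minus strand, mm10, GENCODE vM21), *Smoc2* on chromosome 17 (14279506 to 14404790, plus strand), *Pou3f4* on chromosome X (110814280 to 110817207, plus strand) and *Lef1* on chromosome 3 (131110471 to 131224356, plus strand). *Shh* itself was a low transcript in its own members. A single *Shh* UMI was found in 77 of 119 male members and 56 of 77 female members, and the highest number was 6 in a male and 10 in a female barcode. Summed over members, *Shh* stood at 104 CPM (89.9 to 119.7) in males and 106 CPM (87.7 to 126.2) in females, a level that the rule itself sets. Most barcodes were therefore called from 1 molecule, and a barcode without *Shh* may hold a cell that expresses it.

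Members made up 1.49% (1.23 to 1.78) of male and 1.37% (1.09 to 1.71) of female barcodes, so the intervals of the libraries overlapped. Before the limits on *Cga*, *Pou1f1* and collagen, 189 male and 97 female barcodes had a *Shh* UMI. The *Cga* limit removed 60 and 19 of them, the *Pou1f1* limit 11 and 2, and the collagen limit 6 and 0, with 7 and 1 outside more than 1 limit. Members held 64.4% of all male and 81.8% of all female *Shh* UMIs. The *Cga* limit cut through a continuous range, since the highest male member had 1964 CPM and the lowest male barcode left out 2015 CPM, against 1840 and 2009 CPM among females. The plot of *Shh* against *Cga* shows no gap at that value.

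**Figure D1:**
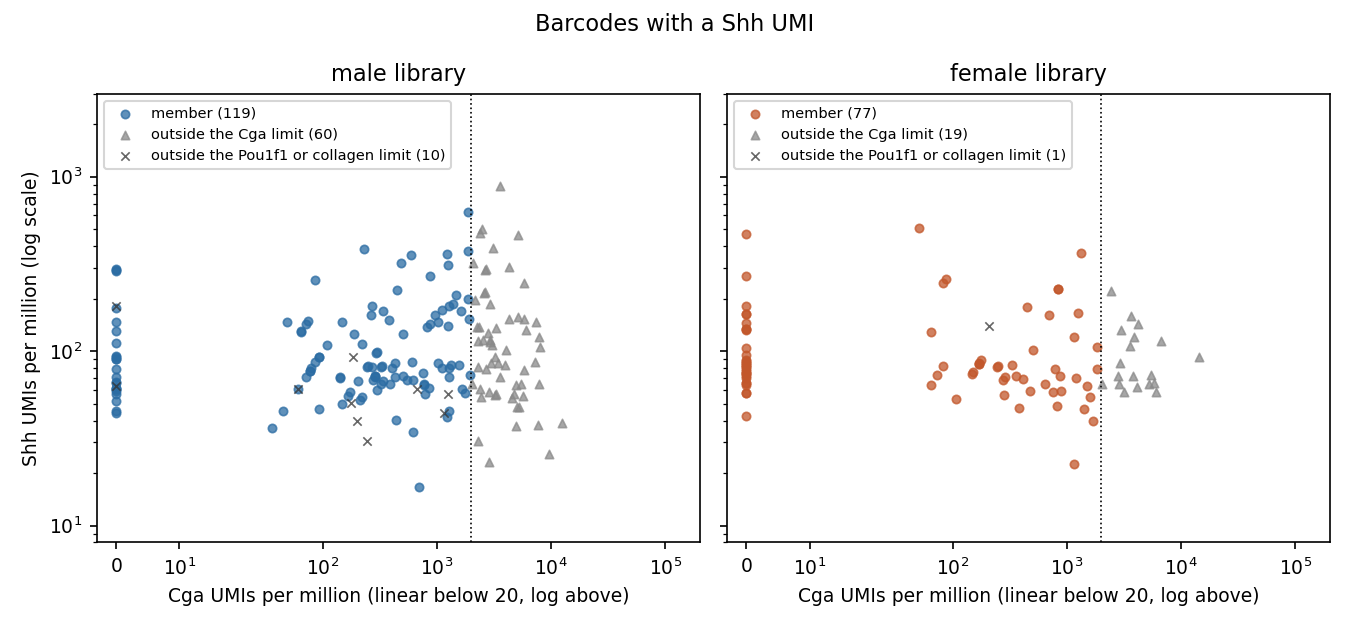
Each point is a barcode with a *Shh* UMI that passed the limits on genes and mitochondrial share, with *Cga* in CPM on the x axis (linear below 20, log above), *Shh* in CPM on the y axis (log scale) and 1 panel per library; the dotted line is the limit of 2000 *Cga* CPM. Members (circles, 119 male and 77 female) run without a gap into the barcodes outside the *Cga* limit (triangles, 60 and 19).

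The label of a differentiating state was checked against its marker genes, and most members held them. *Smoc2* was detected in 116 of 119 male and 76 of 77 female members, and *Lef1* in 94 and 67. At least 2 of *Smoc2*, *Pou3f4* and *Lef1* were found in 103 male and 75 female members, while 2 and 1 had none of them. *Pou3f4* was detected in 56 of 119 male members (47.1%, 37.8 to 56.4) and 48 of 77 female members (62.3%, 50.6 to 73.1), so a large share of *Shh* barcodes lay outside the *Smoc2* and *Pou3f4* state as it is drawn from these UMIs. *Lef1* stood at 166 and 164 CPM in members and 0 UMIs in the *Ednrb* stem cell barcodes, whose definition requires *Lef1* at 0. *Sox2*, a transcription factor of SCs and their early progeny, was still found in 110 and 74 members. *Sox9*, the SC factor whose locus drives the reporter, was found in 20 and 14, at 22.4 and 21.8 CPM.

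Transcripts of the reporter were rare in members. eGFP was detected in 10 of 119 male and 2 of 77 female members, at 6.40 CPM (3.31 to 11.2) and 1.75 CPM (0.211 to 6.31), against 28.8 and 18.5 CPM in *Ednrb* stem cell barcodes, a class whose definition requires *Sox9*.

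To see where *Shh* was found, barcodes were put in 8 marker classes by their UMIs, and each barcode was thinned to 5000 UMIs so that depth was equal. These classes can overlap. *Ednrb* SC barcodes had at least 1 UMI of *Sox2* and of *Sox9*, at least 2 of *Ednrb* and 0 of *Lef1*, and *Aldh1a2* SC barcodes the same with at least 2 *Aldh1a2* UMIs in place of *Ednrb*, which was at 0. Barcodes under 5000 UMIs were left out, 1229 male and 180 female ones in all. After thinning, *Shh* was detected in 7.10% (5.02 to 9.69) of 507 male and 6.02% (3.94 to 8.76) of 415 female barcodes of the late state, defined by at least 2 *Smoc2* UMIs and at least 1 *Pou3f4* UMI. Barcodes with at least 2 UMIs of *Neurod1*, a neurogenic bHLH transcription factor, followed with 2.27% (1.44 to 3.38) and 2.88% (1.07 to 6.17). The early state with at least 2 *Cdkn1a* UMIs, a cell cycle inhibitor, and at least 1 UMI of the Notch ligand *Dll1* gave 1 of 316 male and 0 of 220 female barcodes, where a count of 0 allows up to 1.36%. Without thinning the shares were 14.2% and 13.7% in the late state, 4.75% and 10.0% in the *Neurod1* class, 1.57% and 0.905% in the early state and 0.952% and 0 in collagen barcodes.

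No thinned barcode of either SC class held *Shh*. These were *Ednrb* SCs (0 of 512 male, allowing up to 0.586%, and 0 of 802 female, up to 0.374%) and *Aldh1a2* SCs (0 of 931, up to 0.322%, and 0 of 617, up to 0.486%). The same held for *Tbx19* and *Pax7* melanotroph barcodes, with 0 of 115 and 0 of 85. As a measure of background, barcodes rich in *Col1a1*, *Col3a1* and *Dcn*, which should lack *Shh*, gave 0.36% (0.0436 to 1.29) of 556 and 0 of 300, with a median of 8516.5 and 8031 UMIs before thinning against 14864 and 13596.5 in the late state. *Pou1f1* barcodes, of the somatotroph, lactotroph and thyrotroph lineage, had 0.682% (0.222 to 1.58) and 0.357% (0.009 to 1.97), which overlap that background. The late state exceeded it in both libraries with no overlap of intervals, and so did the *Neurod1* class in the male library only.

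**Figure D2:**
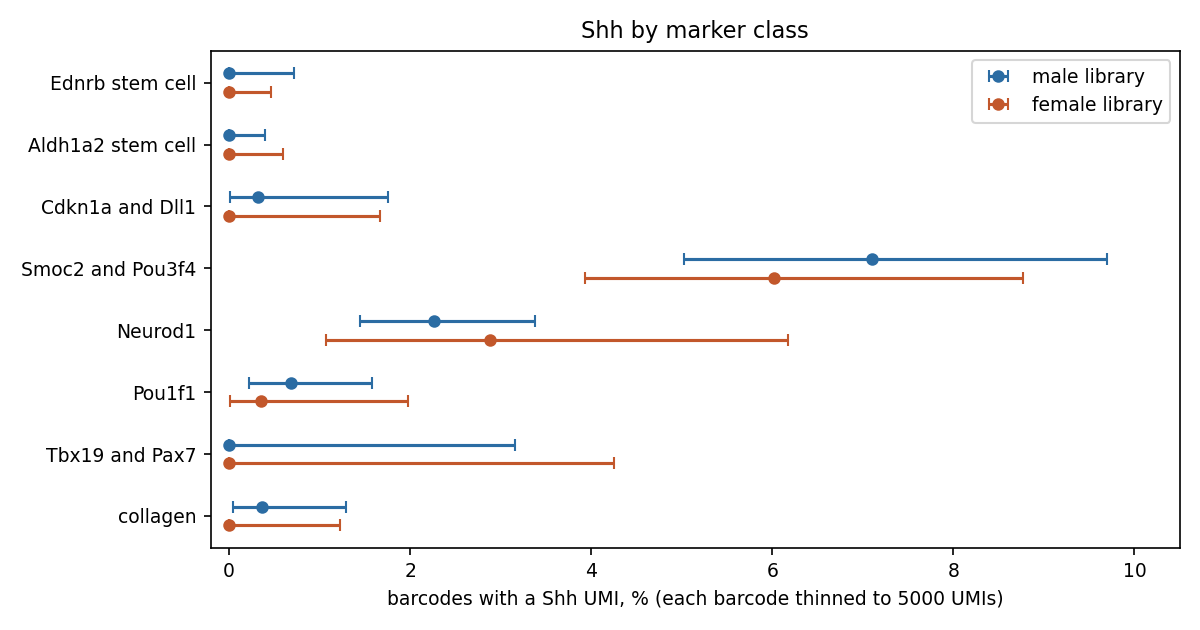
Share of barcodes with a *Shh* UMI (x axis, percent, each barcode thinned to 5000 UMIs) in 8 marker classes (y axis), with points for the male and female library and bars for exact 95% intervals. The *Smoc2* and *Pou3f4* class is highest in both libraries (7.10% and 6.02%), followed by the *Neurod1* class (2.27% and 2.88%), and both SC classes are at 0.

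Detection of *Shh* went up with *Smoc2*. This split and the next one were chosen after earlier results were seen. With *Pou3f4* at 0, the thinned share was 0.042% of 4762 male and 0 of 4178 female barcodes at 0 *Smoc2* UMIs, 2.40% and 0.917% at 2 to 3 UMIs, 5.26% and 4.55% at 4 to 7 UMIs and 11.0% (6.94 to 16.3) and 7.46% (2.47 to 16.6) at 8 or more. With *Pou3f4* detected, the last step gave 8.70% (4.84 to 14.2) and 8.51% (3.75 to 16.1). The intervals of the *Pou3f4* groups overlapped at 8 or more *Smoc2* UMIs, so no difference by *Pou3f4* was detectable there once *Smoc2* was high.

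*Shh* was more frequent in barcodes with *Cga*, which encodes the alpha subunit that the gonadotrophins share with thyrotrophin and is an early transcript of these lineages. Among barcodes with at least 2 *Smoc2* UMIs, *Shh* was detected after thinning in 1.60% (0.735 to 3.02) of 562 male and 2.31% (1.20 to 4.004) of 519 female barcodes without *Cga*. The share was 4.81% and 4.26% below 100 *Cga* CPM, 7.63% and 7.02% from 100 to 500 CPM, and 15.6% (10.2 to 22.3) of 154 and 12.5% (6.41 to 21.3) of 88 from 500 to 2000 CPM. The intervals at 0 and at 500 to 2000 CPM did not overlap in either library. Above the members' limit it was 13.0% (7.92 to 19.8) and 9.52% (2.66 to 22.6) from 2000 to 5000 CPM and 5.26% in both libraries from 5000 CPM (1.73 to 11.9 of 95 and 0.133 to 26.0 of 19). The male share at 5000 CPM and more lay under the interval of the 500 to 2000 CPM range, although its own interval overlapped that one, and in the female library 1 of 19 barcodes does not show a fall. Without thinning, the share from 500 to 2000 CPM was 24.4% and 22.7%, from 2000 to 5000 CPM 23.6% and 28.6%, and from 5000 CPM 16% of 100 and 21.1% of 19, so the range with the highest share differed in the female library.

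Other genes differed across the same *Cga* ranges, while *Smoc2* itself stayed at 343 to 417 CPM (male) and 349 to 436 CPM (female) up to 5000 *Cga* CPM. *Neurod1* was at 8.40 and 4.87 CPM without *Cga* and at 638 and 783 CPM from 2000 to 5000 CPM. *Foxl2*, a forkhead factor of gonadotrophs and thyrotrophs, went from 47.2 to 247 CPM and from 40.9 to 222 CPM over those ranges. *Cdkn1a* went the other way, from 87.1 to 8.50 CPM and from 80.2 to 1.86 CPM, and *Sox2* from 365 to 204 CPM and from 453 to 287 CPM. *Gnrhr*, the receptor of mature gonadotrophs, reached 69.1 CPM in the male library in barcodes with 5000 *Cga* CPM or more, from at most 1.34 CPM below that. In the female library it had 0 UMIs there, which over 19 barcodes allows up to 10.7 CPM. Scrublet marked 21.1% of those male barcodes, against 7.12% of male barcodes without *Cga*, and its part in the result was not tested.

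**Figure D3:**
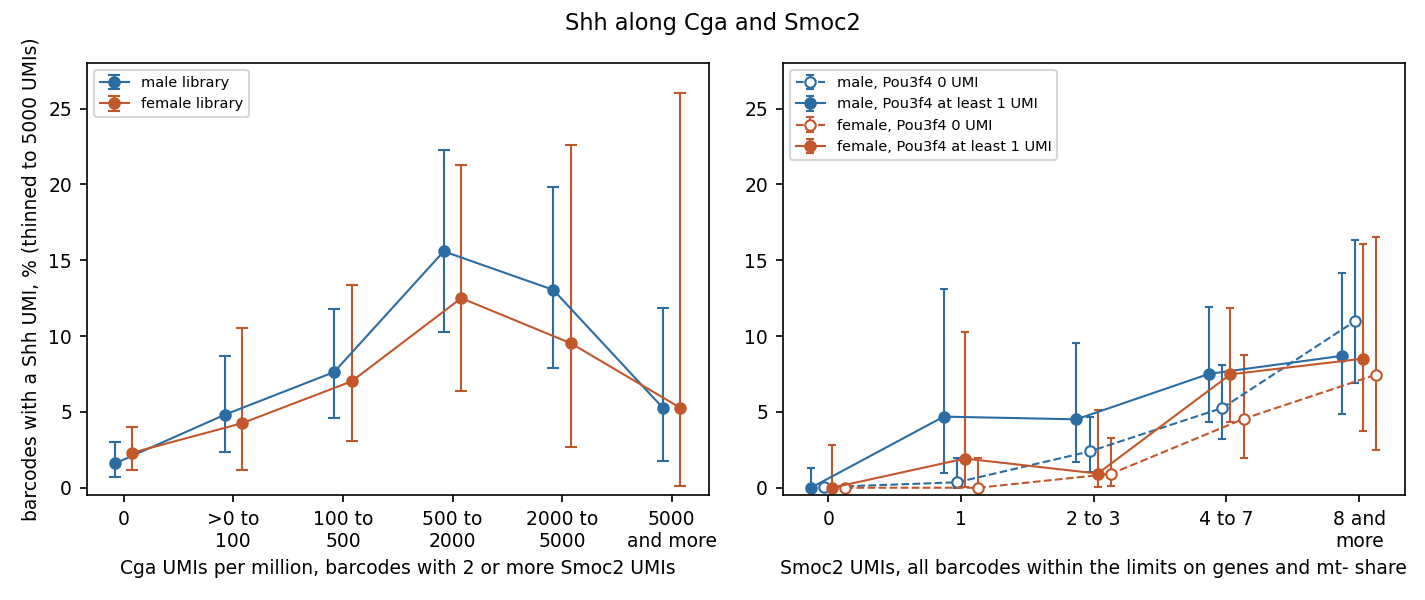
Share of barcodes with a *Shh* UMI (y axis, percent, thinned to 5000 UMIs) by *Cga* in CPM among barcodes with 2 or more *Smoc2* UMIs (left) and by *Smoc2* UMIs with *Pou3f4* at 0 or detected (right); points are libraries and bars are exact 95% intervals. On the left the share is highest from 500 to 2000 *Cga* CPM (15.6% male, 12.5% female), and on the right it is highest at 8 or more *Smoc2* UMIs in both *Pou3f4* groups.

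The hedgehog pathway was then read in the cells that make the ligand. *Ihh* and *Dhh*, the other 2 hedgehog ligands, had 0 UMIs in both sets of members. Among genes for ligand processing and release, *Disp1*, which releases lipid-bearing hedgehog from the cell, was measured at 8.002 CPM (4.48 to 13.2) in male and 5.24 CPM (1.92 to 11.4) in female members, and at 6.84 CPM in *Ednrb* stem cell barcodes of either library. The acyltransferase gene *Hhat* gave 4 UMIs in male and 0 in female members, *Disp2* 3 in each, *Scube1* 1 and 3, *Scube3* 0 and 2, and *Scube2* 0 in both. For each of these genes the intervals of members and *Ednrb* SCs overlapped in both libraries, apart from *Disp2* in the female library. *Disp2*, a relative of *Disp1*, was higher in barcodes of the *Neurod1* class, at 9.95 and 7.997 CPM, than in *Ednrb* stem cell barcodes, at 0.45 and 0.0950 CPM, and members lay between at 1.60 CPM (0.33 to 4.68) and 2.62 CPM (0.54 to 7.66).

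The receptor gene *Ptch1*, also a target of the pathway, was present in members but low. Its level was 35.2 CPM (27.2 to 44.8) in male and 37.5 CPM (27.2 to 50.6) in female members, 27.8 and 34.0 CPM in *Shh*-negative barcodes of the late state, and 72.2 CPM (67.3 to 77.4) and 75.8 CPM (70.6 to 81.2) in *Ednrb* stem cell barcodes. Matched for total UMIs and under the same limits on *Cga*, *Pou1f1* and collagen, members had 0.546 (0.398 to 0.743) and 0.484 (0.328 to 0.703) times the *Ptch1* of *Ednrb* SCs, past a fold of 1.5 in both libraries, as were 17.4% of the genes compared in that direction. *Gli1*, a target that reads out the active pathway, had 0 UMIs in members, which allows up to 1.60 CPM in males and 2.62 CPM in females. In *Ednrb* SCs *Gli1* was itself at 1.71 CPM in both libraries, so a difference in this gene was not detectable at this depth.

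Other genes of reception were also lower in members than in *Ednrb* SCs, at levels that the *Shh*-negative late state shared. The co-receptor *Boc* stood at 2.67 CPM (0.866 to 6.22) and 0.873 CPM (0.0221 to 4.87) in members against 27.98 and 25.5 CPM in *Ednrb* SCs. *Gli2*, the main activator of the pathway, gave 0 UMIs in male members and 3 in female ones (2.62 CPM, 0.54 to 7.66), against 12.4 and 10.9 CPM. *Gli3*, which acts mostly as a repressor, stood at 4.27 CPM (1.84 to 8.41) and 2.62 CPM (0.54 to 7.66) against 19.97 and 14.9 CPM. In the *Shh*-negative late state *Boc* was at 3.13 and 3.46 CPM, *Gli2* at 1.47 and 3.68 CPM and *Gli3* at 4.97 and 5.41 CPM, within intervals that overlapped those of members. For all 3 the intervals of members and *Ednrb* SCs did not overlap in either library, although each had too few UMIs to enter the matched comparison.

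Other reception genes differed less evenly between the libraries. *Smo*, the transducer that PTCH1 blocks, stood at 38.9 CPM (30.5 to 49.0) in male and 24.4 CPM (16.2 to 35.3) in female members, and at 47.5 and 46.3 CPM in *Ednrb* SCs. *Gas1*, a co-receptor anchored in the membrane, was at 72.6 and 104 CPM against 120 and 109 CPM. *Cdon* was at 10.1 and 7.86 CPM against 12.8 and 12.2 CPM. In the matched comparison *Smo* stood at 0.974 (0.696 to 1.36) and 0.561 (0.34 to 0.908) times *Ednrb* SCs and *Gas1* at 0.584 (0.469 to 0.725) and 1.23 (0.931 to 1.62), so that *Smo* was past the fold downward in the female and *Gas1* in the male library alone, and *Cdon* had too few UMIs to enter it. The antagonist *Hhip* was at 38.5 and 22.4 CPM in collagen barcodes and gave only 1 and 2 UMIs in members, and *Sufu* was at 6.93 and 6.11 CPM in members and 6.39 and 6.84 CPM in *Ednrb* SCs.

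**Figure D4:**
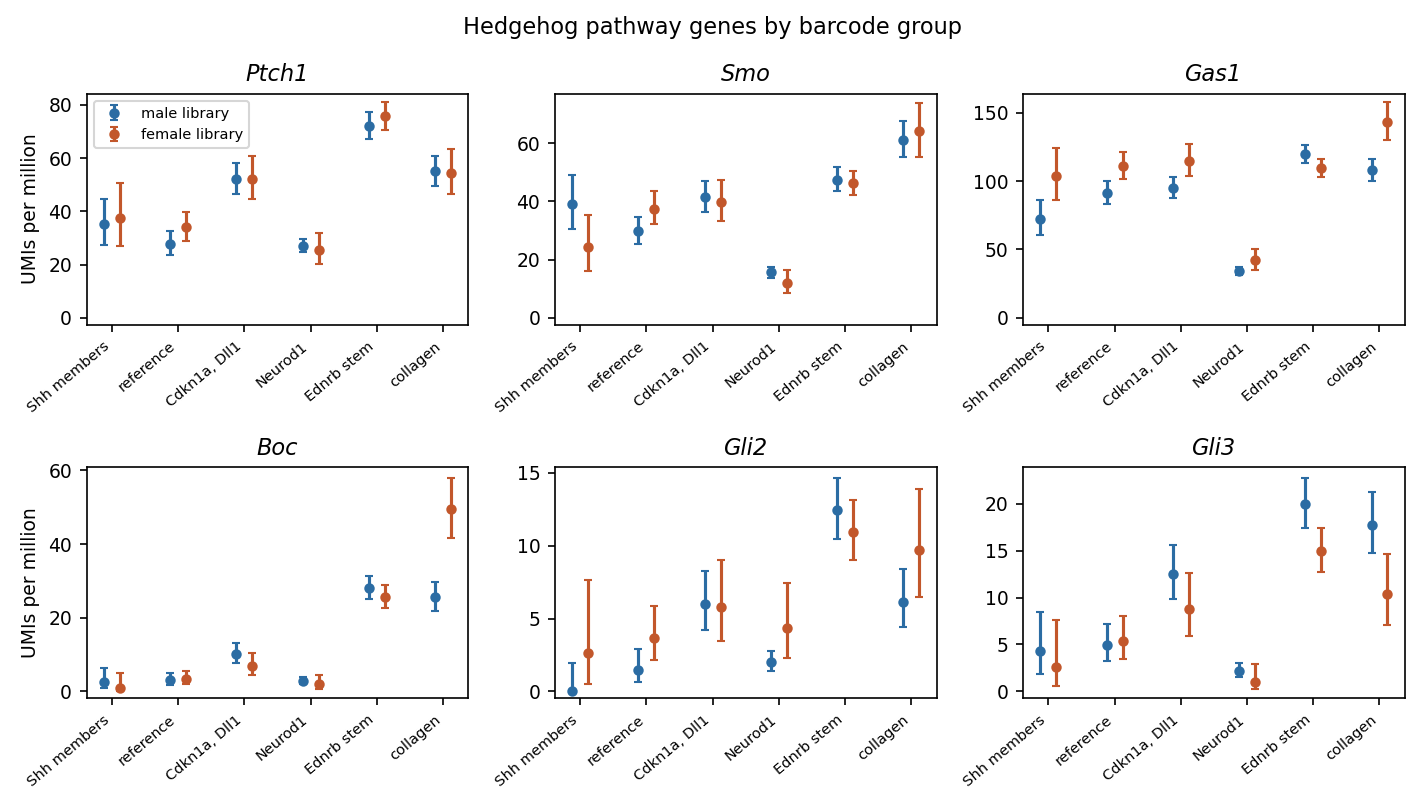
Levels of 6 genes of hedgehog reception (y axis, CPM, each panel with its 0) in members, their *Shh*-negative reference and 4 marker classes (x axis), with points for the male and female library and bars for exact 95% Poisson intervals. *Boc*, *Gli2* and *Gli3* lie far below the *Ednrb* stem cell level in members of both libraries, and *Ptch1* lies at 35.2 and 37.5 CPM against 72.2 and 75.8 CPM.

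Members were compared with 345 male and 322 female barcodes that had no *Shh* UMI, at least 2 *Smoc2* UMIs and at least 1 *Pou3f4* UMI, under the same limits. Each member was matched to 1 such barcode of its library within 0.1 on the log2 scale of total UMIs, which placed 117 of 119 male and 77 of 77 female members, and UMIs were summed over each side. A gene counted as different if it was at least 1.5 times higher or lower in both libraries. Of 5417 genes with enough UMIs, 13 were higher (0.24%) and 12 lower (0.222%) in members, and a gene's ratio had the same sign in both libraries for only 52.1% of them. Few genes of the fixed lists had enough UMIs, namely 3 of 7 hedgehog receptor genes, 4 of 14 WNT response genes, 4 of 9 Notch ligand and 2 of 10 Notch receptor and target genes, 4 of 12 BMP, 3 of 9 FGF, 6 of 12 SC and 3 of 11 gonadotroph genes. More were measured among homeodomain (7 of 11), secretory granule (9 of 11) and immediate early genes (7 of 9). None of these was among the 25, and hedgehog ligand, processing and effector genes and WNT ligands could not be compared at this depth.

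*Rasd1*, which encodes a small Ras-like GTPase induced by glucocorticoids, was among the 12 with the largest difference. It was at 126 CPM in male members and 64.6 CPM in their reference (ratio 1.95, 1.55 to 2.46), and at 101 and 61.2 CPM in females (1.66, 1.22 to 2.26). The synaptic adhesion gene *Nrxn3* was at 109 against 59.1 CPM (1.85, 1.45 to 2.36) and 71.6 against 38.5 CPM (1.86, 1.28 to 2.75). *Tmem191c* (1.68 and 1.95) and *Fam171b* (1.56 and 2.18), membrane protein genes of little known function, and *Socs3* (2.18 and 1.92), a feedback inhibitor of cytokine signalling, were also higher. *Cyr61*, a matricellular immediate response gene, had ratios of 2.02 and 1.98 but was detected in only 16 of 117 and 8 of 77 members, and 1 barcode gave 31 of 101 male and 37 of 85 female UMIs of members and 34 of 50 and 31 of 43 UMIs of the reference. Without the barcode with the most UMIs on each side, its ratios were 4.43 and 3.997. *D10Jhu81e*, *Dhrs1*, *Lyrm9* and *Ngly1* followed with ratios of 1.52 to 1.91 in males and 1.56 to 1.81 in females, and the last gene past the fold was *Egr4* (1.502 and 1.89), an immediate early transcription factor. Some of these rest on few UMIs. *Lyrm9* had 36 against 23 and *D10Jhu81e* 44 against 27 in females, and *Ngly1* had 55 against 36 in males.

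The 2 replication histone genes among the 13 rested on single barcodes. *Hist1h2ap* had ratios of 2.33 and 2.73, but 1 male barcode gave 148 of its 373 UMIs and 1 female barcode 59 of 101. *Hist1h1b* had ratios of 1.81 and 2.63, with 141 of 225 and 85 of 121 UMIs from 1 barcode each, and stood at 0.763 and 0.900 times the reference when the barcode with the most UMIs was left out on each side. Without those barcodes *Hist1h2ap* stood at 1.48 and 1.31.

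Genes lower in members included *Gadd45b*, a stress-induced gene, at 122 CPM against 202 CPM in males (0.607, 0.511 to 0.719) and 154 against 270 CPM in females (0.569, 0.47 to 0.687). *Rnd3*, an atypical small GTPase gene, was at 48.9 against 78.0 CPM (0.627, 0.475 to 0.825) and 41.9 against 76.0 CPM (0.551, 0.379 to 0.793). *Rph3a*, a Rab effector of exocytosis, had the smallest ratios (0.464 and 0.421) on 20 and 16 UMIs in members. *Baz1a*, *Capn6*, *Ddx19a*, *Dxo*, *Hunk*, *Rce1*, *Rnf150*, *Zfp503* and *1810041L15Rik* followed with ratios of 0.599 to 0.665 in males and 0.394 to 0.666 in females. Of the 12 lower genes, *Rph3a*, *Gadd45b*, *Rnd3* and *Baz1a* had intervals below 1 in both libraries, and the other genes had an interval that held 1 in at least 1 library.

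*Sox2* and *Lef1* stood at similar levels on both sides, and *Foxl2* and *Neurod1* did not. *Sox2* was at 335 against 323 CPM in males (1.04, 0.923 to 1.16) and 343 against 370 CPM in females (0.928, 0.807 to 1.07). *Lef1* had ratios of 1.21 (1.02 to 1.43) and 1.04 (0.846 to 1.29). These intervals leave out a 1.5-fold difference in either direction for both genes. *Foxl2* was at 138 against 97.5 CPM (1.42, 1.17 to 1.73) and 124 against 66.4 CPM (1.87, 1.40 to 2.5004), past the fold in the female library alone. *Neurod1* went in opposite directions, at 0.73 (0.57 to 0.932) and 2.69 (1.99 to 3.695) times the reference. It was detected in only 27 of 119 male and 18 of 77 female members. Single female members held 51 and 39 of its UMIs and a single male member 36, so ratios of *Neurod1* here and below rest on few members.

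The members had more *Cga* than their reference, with a median of 275 against 74.9 CPM for the matched males and 106 against 0 CPM for the matched females. The reference requires *Pou3f4* and the members do not. For the matched members that met the same *Smoc2* and *Pou3f4* minimum, the medians were 92.9 against 65.3 CPM in males and 82.4 against 0 CPM in females. *Cga* is a gene of the rule, so this is given as a description. When each member was instead matched within 4 ranges of *Cga* (110 male and 73 female members, chosen after the data were seen), 5 genes were higher and 8 lower, of which 2 and 2 were among those above. Several of the others had too few UMIs to enter that comparison, among them *Socs3* (2.66 and 2.998) and *Cyr61* (2.29 and 1.999), whose ratios stayed past the fold, and *Rce1*, *Hunk*, *Rnf150*, *Rph3a*, *Zfp503*, *Ddx19a* and *1810041L15Rik*. Others entered it but did not pass the fold in both libraries. These were *Gadd45b* (0.691 and 0.767), *Rnd3* (0.632 and 0.689), *Tmem191c* (1.33 and 1.54) and *Fam171b* (1.31 and 2.31). *Dhrs1*, *Lyrm9*, *D10Jhu81e*, *Ngly1*, *Capn6*, *Hist1h1b* and *Hist1h2ap* did not pass it either. *Rasd1* (1.55 and 1.63) and *Nrxn3* (1.62 and 1.62) were the 2 higher genes, *Baz1a* (0.656 and 0.563) and *Dxo* (0.65 and 0.65) the 2 lower ones. *Foxl2* then stood at 1.33 (1.09 to 1.63) and 1.20 (0.925 to 1.57) times the reference, and *Neurod1* at 0.718 (0.56 to 0.917) and 0.716 (0.58 to 0.881), with both libraries in the same direction. That *Neurod1* difference was not seen in members that also met the *Smoc2* and *Pou3f4* minimum of the reference. Matched in the same way, they stood at 0.972 (0.698 to 1.354) and 1.0025 (0.780 to 1.288) times its *Neurod1* level.

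**Figure D5:**
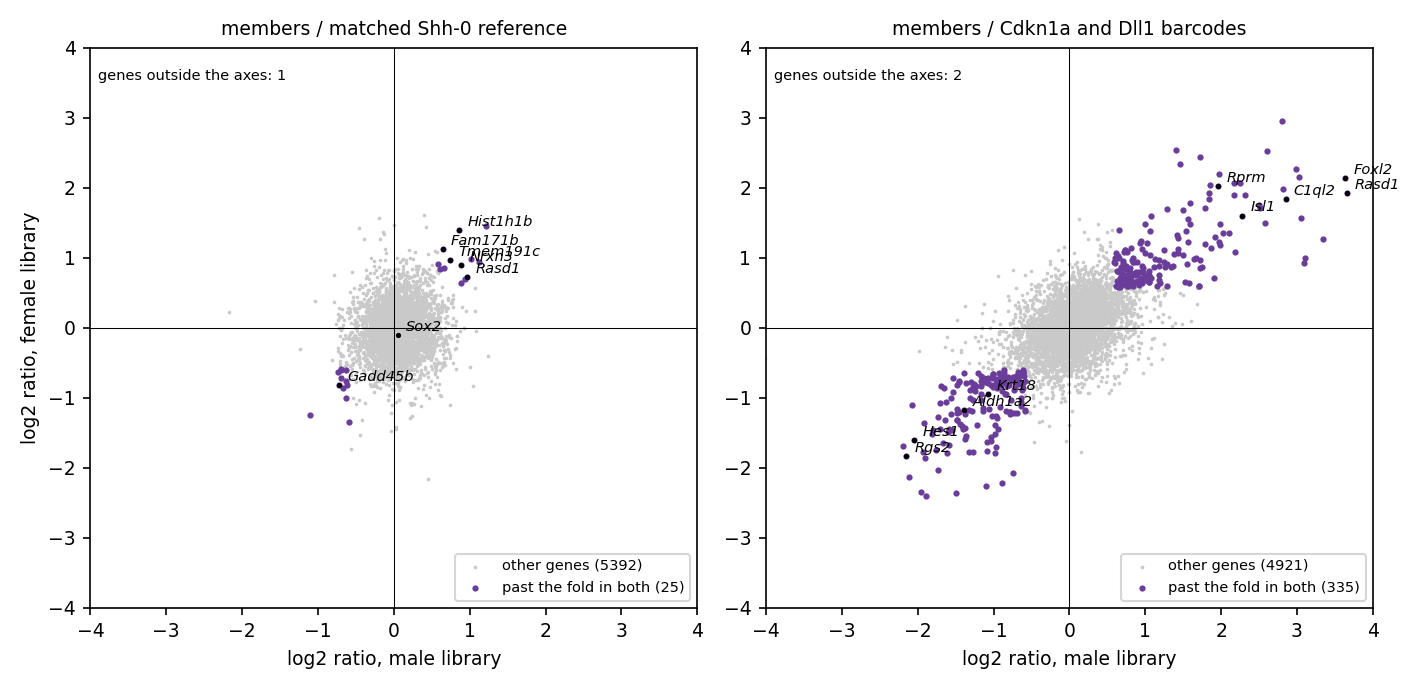
Log2 ratio of each gene in the male library (x axis) against the female library (y axis), for members over the matched *Shh*-negative reference (left, 5417 genes) and over *Cdkn1a* and *Dll1* barcodes (right, 5256 genes). Purple points passed a fold of 1.5 in both libraries, 25 genes on the left and 335 on the right, black points mark named genes, and 1 and 2 genes lie outside the axes.

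Because the reference holds *Pou3f4* by rule, the 52 male and 45 female members that met the same *Smoc2* and *Pou3f4* minimum were compared with it as well, of which 51 and 45 were matched. Of 3752 genes, 23 were higher (0.613%) and 13 lower (0.346%), with the same sign in both libraries for 51.5%. *Rasd1*, *Fam171b* and *Tmem191c* were again higher, at 1.70 and 5.87, 1.89 and 2.20, and 1.65 and 1.9995 times the reference, in members that are part of the sets above and so are not a separate sample. For *Rasd1*, 1 male barcode gave 23 of 82 UMIs, and the ratios without the barcode with the most UMIs on each side were 1.46 and 5.78. *Ap1s2*, a subunit of the clathrin adaptor AP-1, was at 49.4 against 20.3 CPM in males (2.43, 1.33 to 4.66) and 84.0 against 17.7 CPM in females (4.75, 2.52 to 9.72).

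From the fixed lists, *Foxl2* (129 against 69.8 CPM, 1.85, 1.32 to 2.62, and 131 against 79.6 CPM, 1.65, 1.16 to 2.36) was the gonadotroph factor past the fold. *Id1*, an inhibitor of bHLH factors induced by BMP (1.80 and 2.97), and the synaptic vesicle calcium sensor *Syt1* (1.57 and 1.53) were the others that were higher. *Krt18*, a keratin of SCs, was lower, at 75.9 against 150 CPM (0.507, 0.365 to 0.698) and 53.1 against 122 CPM (0.434, 0.285 to 0.649). Matching within *Cga* ranges gave *Foxl2* ratios of 1.45 (1.06 to 2.0003) and 1.57 (1.10 to 2.26), so that *Foxl2* no longer passed the fold in the male library. *Rasd1* ratios were 1.78 (1.23 to 2.61) and 2.27 (1.53 to 3.42). *Id1* ratios were 0.811 (0.575 to 1.14) and 1.30 (0.919 to 1.86), with intervals that held 1 in both libraries. *Krt18* ratios were 0.998 (0.686 to 1.45) and 0.456 (0.272 to 0.744), so that its male difference was not seen under this matching.

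*Rnls*, *Ptn*, *Elavl4*, *Chfr*, *Epb41l4a* and *Nol4* were the other genes of the 12 with the largest difference upward, with ratios of 1.67 to 2.24 in males and 1.60 to 2.26 in females. *Elavl4* encodes a neuronal RNA-binding protein and *Ptn* a secreted growth factor. Downward, *Wfdc2*, a secreted protease inhibitor of epithelia, was at 134 against 228 CPM and 183 against 293 CPM. *Psmg2*, *Baz1a*, *Usp1*, *Dtna*, *Trmt10c*, *Cyb5r3*, *Slc39a10*, *Olfm1*, *Rps6kb1* and *Thap12* had ratios of 0.476 to 0.665 and 0.378 to 0.636.

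Against earlier and later barcodes the members stood far more apart than against the late state, in comparisons chosen after earlier results were seen. Each used barcodes without *Shh* under the same limits, except that the *Cga* limit was not set for *Neurod1* barcodes, and genes that define a class were left out of its counts. Over *Cdkn1a* and *Dll1* barcodes, 177 of 5256 genes (3.37%) were higher in members and 158 (3.01%) lower. Over *Neurod1* barcodes, 186 of 5303 genes (3.51%) were higher and 382 (7.2%) lower. Over *Ednrb* SCs, 571 of 5798 genes (9.85%) were higher and 1008 (17.4%) lower.

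From the *Cdkn1a* and *Dll1* state, genes of endocrine differentiation were higher in members. *Foxl2* was at 138 against 11.1 CPM in males (12.4, 7.88 to 20.7) and 124 against 28.1 CPM in females (4.39, 2.95 to 6.71). *Neurod1* was at 65.1 CPM against 1 UMI in males (117, 20.6 to 4656) and 144 CPM against 0 UMIs in females, at least 53.0-fold higher there by a floor of 3 UMIs over the group. *Isl1*, a LIM-homeodomain factor of gonadotroph development (4.86 and 3.04), and *C1ql2*, a secreted C1q-like protein (7.20 and 3.57), were higher as well. Of 7 secretory granule genes tested, 5 were higher and 0 lower, with *Chga* at 176 against 39.0 CPM (4.51, 3.47 to 5.93) and 223 against 59.9 CPM (3.73, 2.83 to 4.97), beside *Scg2*, *Scg3*, *Snap25* and *Syt1*.

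SC genes were lower. Of 7 tested, *Sox9* (0.416 and 0.489), *Hes1* (0.241 and 0.328), *Aldh1a2* (0.383 and 0.442), *Krt18* (0.477 and 0.518) and *Rbpms* passed the fold downward and none upward. The Notch target genes *Hey1* and *Hes1* were lower, while the inhibitory ligand *Dll3* was higher (2.38 and 2.15). *Id1* (0.344 and 0.530) and *Id2* (0.499 and 0.633) were lower. *Rgs2*, a regulator of G protein signalling, was at 134 against 595 CPM (0.225, 0.195 to 0.259) and 123 against 436 CPM (0.281, 0.231 to 0.341), and *Rprm*, a p53-induced arrest gene, at 541 against 139 CPM (3.88, 3.38 to 4.48) and 556 against 137 CPM (4.05, 3.39 to 4.88).

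Toward *Neurod1* barcodes the order turned. Members were held under the *Cga* limit here and *Neurod1* barcodes were not. Matched male members had a median of 284 *Cga* CPM against 12338.5 CPM in *Neurod1* barcodes. In females these medians were 96.4 and 2837 CPM, so the *Neurod1* barcodes also differed in *Cga* between the libraries. How far the differences below follow from this gap in *Cga* was not tested. *Scg2* was at 69.9 CPM in male members against 958 CPM (0.073, 0.0606 to 0.0872) and 98.4 against 614 CPM in females (0.16, 0.129 to 0.197), and 7 of 10 granule genes were lower and 0 higher. *Foxl2* was at 0.631 and 0.632 times the *Neurod1* level. Genes of the earlier states were higher in members, with *Sox2* at 3.39 and 2.65 times, *Dll1* at 2.54 and 1.92 times and *Mycl* at 5.17 and 2.502 times. WNT response genes were higher too, namely *Lef1* (5.87 and 2.88), *Nkd1* (3.11 and 1.68) and *Axin2* (1.56 and 2.41), which are 3 of 4 tested, and so were *Runx1* (11.3 and 7.78) and *Bmp4* (7.09 and 7.84). *Pomc*, the hormone precursor gene of corticotrophs and melanotrophs, had ratios of 0.12 and 0.00683, but 1 barcode gave 15828 of 66767 male and 9998 of 18958 female *Pomc* UMIs of the whole *Neurod1* class. *Pomc* was detected in 85.0% and 43.5% of that class and in 81.5% and 32.5% of members.

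Over *Ednrb* SCs, *Hes6*, an antagonist of *Hes1*, was 22.4 and 20.9 times higher in members, and *Hes1* stood at 0.0623 and 0.0721 times. All 8 proliferation genes were lower and 0 higher. After thinning, at least 2 of those 8 markers were found in 3 of 118 male members (2.54%, 0.527 to 7.25) and 1 of 77 female members (1.30%, 0.0329 to 7.02), against 38.3% (34.1 to 42.6) and 23.6% (20.7 to 26.7) of *Ednrb* SCs. Late-state barcodes without *Shh* had 4.41% (2.49 to 7.17) and 4.05% (2.17 to 6.83), which overlap the members. *Cdkn1c*, a CDK inhibitor, was 2.39 and 2.14 times higher in members than in *Ednrb* SCs.

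The members were also divided by *Pou3f4*. Median *Cga* was 120 CPM with and 401 CPM without *Pou3f4* in males, and 82.4 and 168 CPM in females, and the sides were not matched for it. Members with *Pou3f4* were compared with those at 0, and 13 of 3307 genes (0.393%) were higher and 12 (0.363%) lower in both libraries, while the sign was the same in both for 50.2% of genes. *Neurod1* was at 113 CPM with and 40.4 CPM without *Pou3f4* in males (2.81, 1.92 to 4.17) and 186 and 57.3 CPM in females (3.24, 2.09 to 5.23). *Ap1s2* (2.90 and 3.28) and *Stmn2*, a neuronal microtubule regulator (2.16 and 1.70), were higher with *Pou3f4*, and *Bmp4* (0.416 and 0.619), *Runx1* (0.619 and 0.448) and *Nrxn3* (0.661 and 0.451) were lower. *Nrxn3* was among the genes higher in members than in the reference, where *Pou3f4* is always present, and in the members that met the reference's own minimum it stood at 2.12 and 1.20 times the reference, past the fold in the male library alone.

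Members with 2 or more *Shh* UMIs (42 male, 21 female) were set against those with 1, which separates them by a gene of the rule. Of 3307 genes, 5 were higher (0.151%) and 15 lower (0.454%), with the same sign in both libraries for 52.3%. *Ap1s2* led upward (1.74, 0.992 to 3.04, and 2.13, 1.27 to 3.55). *Dlk1*, an imprinted Notch-related ligand, was at 307 against 508 CPM (0.603, 0.513 to 0.707) and 457 against 768 CPM (0.595, 0.492 to 0.716). *Hist1h1b* and *Hist1h2ap* were lower, which includes the single barcodes named above.

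Barcodes with *Shh* above the members' *Cga* limit were described as well. In 53 male and 18 female barcodes that had *Shh* and broke only the *Cga* limit, *Smoc2* was at 462 and 439 CPM, close to the 403 and 406 CPM of members, *Foxl2* at 243 and 275 CPM against 144 and 124 CPM, and *Neurod1* at 380 and 738 CPM against 75.8 and 139 CPM. *Sox2* was at 198 and 347 CPM against 344 and 343 CPM. Only 8 and 0 UMIs of *Sox9* were found.

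Between the sexes, members of the male library were set against members of the female library. The libraries differ in all that separates 2 preparations, and sex cannot be told apart from them. Of 6467 genes, 431 (6.66%) were at least 1.5 times higher in males and 165 (2.55%) in females. *Pomc* (138 against 34.1 CPM, 4.06, 2.89 to 5.84), *Klf2* (4.73, 2.59 to 9.49) and *Rec8* led in males, with *Pcnx4* and *Praf2*. *Pomc* was detected in 97 of 119 male but 25 of 77 female members, and its share differed in the same direction in collagen barcodes, which should lack it (74.1% and 22.6%, at medians of 8516.5 and 8031 UMIs), and in all barcodes (79.1% and 35.2%). These shares were not thinned. *Id3*, a BMP target (0.416, 0.283 to 0.606), *Nmt1* (0.437), *Arrdc4* (0.344), *Ammecr1* (0.439) and *AC160336.1* (0.281) were lowest in the male relative to the female library. *Ptch1* (35.2 and 37.5 CPM) and *Smoc2* (403 and 406 CPM) had overlapping intervals in the 2 libraries.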

How the data were processed

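Single cells were measured with 10x Genomics droplets in 1 male and 1 female library. The authors deposited UMI counts per gene and barcode, made with Cell Ranger 3.0.2 on mm10 with eGFP added and not normalized, for 31055 features, of which 71 share a symbol and were kept apart. The labels name both v2.0 and v3 chemistry and the methods v2, and the submitters' processing notes list Seurat 3 and 4 and R 3.6.0. All columns belonged to these libraries (0 others). Gene positions came from GENCODE vM21.

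Each member was matched once to a barcode of its library within 0.1 log2 of total UMIs, and counts were summed. A gene was tested with at least 10 CPM in a group and 50 UMIs over both groups in each library, and it passed with a ratio of at least 1.5, or its inverse, in both libraries. Intervals are 95% and exact: conditional binomial for ratios, Poisson for CPM and Clopper-Pearson for shares. A count of 0 allows 3 UMIs or barcodes. Named genes were the 12 with the largest ratios each way, ranked by the smaller absolute log2 ratio of the libraries (5 each way between sexes), the hedgehog list, the markers and list genes past the fold; other genes were chosen after their values were seen. The members and lists were chosen with earlier results of these data known, and the other comparisons and splits, and matching within *Cga* ranges or to 2 barcodes, after seeing the data. Python 3.11.15, numpy 2.4.6, scipy 1.17.1, scanpy 1.11.5 (Scrublet, highest 0.8% per 1000 barcodes) and matplotlib 3.10.9 were used, and the scripts were tested on simulated data. Some genes are not reported here.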

Additional observations from a re-analysis of the deposited data

Results flagged for a closer look

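Barcodes outside the limits on genes and mitochondrial share enter no comparison. In the male library 8 of 2560 of them had a *Shh* UMI (0.3125%, 0.135 to 0.615). A count of 0 in these barcodes would have allowed up to 0.117%, which is not a measure of background. These 8 barcodes had a median of 1181 UMIs, and *Smoc2* was detected in 1 of them. In the female library 0 of 192 had *Shh*, which allows up to 1.56%.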

How the results depend on the processing

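The counts of genes past the fold moved with the settings. So did the genes themselves: of the 13 higher and 12 lower genes, 5 and 4 were shared without the highest Scrublet scores, 12 and 6 at a mitochondrial limit of 5%, 3 and 3 without matching and 11 and 9 with another matching order. With at least 2 *Shh* UMIs, where only 1861 genes had enough UMIs, 1 and 1 were shared. Of the 23 and 13 genes within the *Smoc2* and *Pou3f4* state, 1 and 1 were shared with at least 2 *Shh* UMIs. Without matching 7 and 0 of them were shared, and within *Cga* ranges 7 and 1. Of 12 settings, with the fold of 2 left out, *Nrxn3* passed the fold against the reference in 11, *Rasd1* and *Rnd3* in 10, *Ddx19a* and *Capn6* in 4, *Rce1* in 3 and *Ngly1* in 2. A gene minimum of 2000 is 1 of these settings. It could remove no member, since their lowest gene counts were 2108 in males and 2956 in females, and it gave the same 13 and 12 genes. For members against the reference (13 higher, 12 lower), they were 6 higher with at least 2 *Shh* UMIs, 32 and 31 without matching, 187 and 145 with 10 UMIs and no CPM minimum, 8 and 2 with 20 CPM and 100 UMIs, 1 and 1 with a fold of 2, 19 lower with 2 reference barcodes per member, and 5 higher within *Cga* ranges. For members within the *Smoc2* and *Pou3f4* state (23 and 13), they were 7 and 7 with at least 2 *Shh* UMIs, 10 higher against a reference without the *Cga*, *Pou1f1* and collagen limits, 54 and 84 without matching, 209 and 209 with no CPM minimum, 9 and 3 with 20 CPM, 1 and 0 with a fold of 2, 15 higher with 2 reference barcodes, and 11 and 7 within *Cga* ranges. Between the sexes (431 and 165), they were 69 and 21 with a fold of 2 and 163 and 55 with 20 CPM.

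The share of members (1.49% and 1.37%) was 0.524% and 0.375% with at least 2 *Shh* UMIs, 0.914% and 0.645% after thinning and 2.15% in males without the *Cga* limit. *Shh* in the late state was 2.94% in males at 3000 UMIs, and 14.2% and 13.7% without thinning.

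Of 960 gene ratios recomputed, 20 changed direction. With at least 2 *Shh* UMIs these were *Hist1h2ap* (0.658), *Hist1h1b* (0.311) and *Id1* within the state (0.176) in males, *Zfp503* (1.40) in females, and *Cyr61* (0.455 and 0.99985) and *Socs3* (0.812 and 0.714) in both. Without matching they were *Krt18* (1.04) and *Dtna* (1.06) within the state in males, and *Socs3* (0.896) and *Hist1h1b* (0.99988) in females. For female *Hist1h1b* the ratio was 0.714 without the highest Scrublet scores, 0.637 with 2 reference barcodes and 0.861 within *Cga* ranges, and for female *Hist1h2ap* it was 0.712 and 0.869 under the last 2 of these. Within *Cga* ranges *Ngly1* (0.921) and *Id1* within the state (0.811) in males and *1810041L15Rik* (1.11) in females also turned. Beyond the single histone barcodes, the cause was not tested. No paired analysis was possible because each sex has 1 library and no test was made. Most members hold 1 *Shh* UMI, so depth limits which barcodes are found.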
